A study of Homo sapiens with 9 samples.

Results

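The response that loss of either SIN3 paralog has in common was measured as the mean of 2 knockdown effects: 6 libraries with SIN3A or SIN3B reduced on one side, and 3 control libraries on the other. All 9 libraries of the series belong to this comparison. HEK293T cells, which were derived from embryonic human kidney and express the large T antigen of SV40, received 10 nM of siRNA by transfection, directed at SIN3A, at SIN3B or at neither (the control siRNA), and were harvested after 36 h, with 3 libraries per group. All cells, controls included, went through siRNA transfection. The label that describes the treatment names the control siRNA for every sample, so groups were taken from the sample titles. How many siRNA sequences were used per target, and whether replicates were separate transfections, is not given in the sources used here, so the p-values reflect library-to-library spread only, part or all of which may be technical. Poly-A selected RNA was sequenced, and a level below is in CPM, the count of a gene relative to the total of its library after scaling of the libraries by the TMM method.

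SIN3A and SIN3B are paralogous scaffold proteins that do not bind DNA themselves. Each holds histone deacetylases HDAC1 and HDAC2, histone-binding RBBP proteins and further subunits, and is brought to genes by DNA-binding factors such as the MAX partners of the MXD family, which bind E-boxes (CACGTG), or REST, which binds near neuronal genes. Deacetylation of histones is mostly tied to lower transcription, and SIN3 is known for the repression of cell-cycle, neuronal and differentiation genes. A gene that responds alike to loss of either paralog and a gene that responds to loss of 1 of them can both move the mean, and these were told apart by the direct comparison of the SIN3A with the SIN3B knockdown. No control library enters the difference itself, but the controls share in the estimate of the spread it is tested against.

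The promoters of 4 genes that rose in all 6 knockdown libraries are shown because E-box factors are among those that recruit SIN3. They were chosen after their values were seen: the 3 of the largest rises found to hold an E-box, and CDKN1B. CDC42, GCC2, ENPP5, CCDC186, PIK3C2A, EEA1 and ANKRD12, also among the largest rises, held none in the same window. Each runs from 250 bases before to 50 bases after the RefSeq start site (GRCh38.p14), 5′ to 3′ on the gene's strand, and E-boxes are in capitals. The EIF5A2 promoter lies at chr3:170908588-170908887 on the minus strand, that of CREBRF at chr5:173056102-173056401 on the plus strand, that of CENPE at chr4:103198294-103198593 on the minus strand and that of CDKN1B at chr12:12717118-12717417 on the plus strand.
EIF5A2: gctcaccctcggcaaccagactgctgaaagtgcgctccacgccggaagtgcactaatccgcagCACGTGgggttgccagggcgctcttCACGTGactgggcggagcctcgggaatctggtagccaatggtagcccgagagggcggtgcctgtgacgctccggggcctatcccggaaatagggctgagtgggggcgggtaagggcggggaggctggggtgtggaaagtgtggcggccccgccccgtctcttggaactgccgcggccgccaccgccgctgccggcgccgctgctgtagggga
CREBRF: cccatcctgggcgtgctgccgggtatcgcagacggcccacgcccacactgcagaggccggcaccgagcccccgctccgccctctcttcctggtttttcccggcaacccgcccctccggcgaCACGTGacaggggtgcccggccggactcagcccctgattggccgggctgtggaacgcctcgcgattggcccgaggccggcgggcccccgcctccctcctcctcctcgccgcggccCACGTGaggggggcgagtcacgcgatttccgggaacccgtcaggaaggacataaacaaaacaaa
CENPE: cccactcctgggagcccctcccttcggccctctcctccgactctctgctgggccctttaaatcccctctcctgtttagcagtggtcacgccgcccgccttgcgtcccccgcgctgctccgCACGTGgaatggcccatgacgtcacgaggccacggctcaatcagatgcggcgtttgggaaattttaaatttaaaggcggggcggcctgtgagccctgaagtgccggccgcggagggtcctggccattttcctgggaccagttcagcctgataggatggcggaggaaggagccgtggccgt
CDKN1B: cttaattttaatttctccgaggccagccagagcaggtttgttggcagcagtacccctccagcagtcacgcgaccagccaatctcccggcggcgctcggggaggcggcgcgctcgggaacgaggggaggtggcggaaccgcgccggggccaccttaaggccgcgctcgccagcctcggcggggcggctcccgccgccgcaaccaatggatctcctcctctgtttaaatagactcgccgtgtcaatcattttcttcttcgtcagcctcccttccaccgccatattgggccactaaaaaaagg

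The letters CACGTG, which read the same on both strands, stood 2 times in the EIF5A2 promoter, 2 times in that of CREBRF, 1 time in that of CENPE, and 0 times in that of CDKN1B. Over the genes with a promoter in the table, 11.2% of 1500 genes that rose and 11% of 1290 that fell held an E-box, against 10.1% of all 11191 genes tested and 7.43% of all 27305 promoters in the table. A match to the E2F letters TTTNGCGC on either strand stood in 4.2% of the promoters of genes that rose and 2.25% of those that fell, against 2.93% of all genes tested. The CCAAT letters stood in 40.5% and 32%, against 36.5%. The median GC content of these promoters was 65.3% for genes that rose and 68.3% for genes that fell. These matches describe letters in a window and are no measure of binding.

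Libraries differed in spread. Counts summed to 22542798 to 27084884 per library, and at least 98% of counts above 0 in every library could be divided by 4, so the floor of 3 units was set at 12 counts, or 0.442 to 0.552 CPM, which covers counting error only. The chi-square per degree of freedom between replicates was 1.57 to 1.86 for controls, 1.42 to 1.98 for the SIN3B knockdown and 3.53 to 7.37 for the SIN3A knockdown. Each siRNA lowered its own target. SIN3A was at 141, 147 and 149 CPM in controls, 44.9, 49.9 and 47.0 with its own siRNA, and 142 to 150 with the SIN3B siRNA. SIN3B was at 100, 97.1 and 91.1 CPM in controls, 59.2, 53.8 and 52.3 with its own siRNA, and 84.6, 106 and 100 with the SIN3A siRNA. Both genes are thus called lower in the mean of both knockdowns (-0.81 ± 0.06 and -0.40 ± 0.07, log2 fold change ± SE), each through 1 knockdown only. VIM, which HEK293 cells express, was at 647 to 919 CPM. It is on a list of 12 HEK293 markers, of which 4 were called lower in the mean of both knockdowns and 0 higher. NEFM, INA and NEFL, given below with the neuronal genes, are among those called. The summed level of the list was 1400 to 1530 CPM in controls, 1180 to 1430 with SIN3A siRNA and 1090 to 1150 with SIN3B siRNA. Of 12 fibroblast markers 5 were tested, with a summed level of 41.6 to 43.4 CPM in controls, 45.5 to 59.9 with SIN3A siRNA and 38.1 to 44.2 with SIN3B siRNA, while COL1A2, DCN and FAP had no count. Of 15 blood cell markers 4 were tested (summed level over all libraries 5.48 to 8.65 CPM), with PTPRC, CD3E, CD3D, MS4A1 and HBB at 0. Of 8 liver markers 2 were tested (0.626 to 1.76 CPM), with 5 at 0, and of 8 endothelial markers 1 was tested (0 to 0.795 CPM), with 4 at 0. None of the 12 fibroblast, blood cell, liver and endothelial genes tested was called in the mean of both knockdowns, and their part in the results was not tested.

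Across 16686 genes tested, 1856 rose and 1787 fell when both knockdowns together were set against control (edgeR quasi-likelihood test, Benjamini-Hochberg adjusted p under 0.05). These are 11.1% and 10.7% of the genes tested, or 21.8% in either direction, and the lists below are read against these shares. The shares depended on level and base composition, so they are only a rough measure for a list. At a mean level of at most 1 log2 CPM 0.48% rose and 2.67% fell, and above 5 and up to 7 log2 CPM 20.5% and 11.8%. In the lowest of 5 bins by transcript GC content (26.7% to 41.6%), 29.4% rose and 2.28% fell. Most changes were small, with a median log2 fold change of 0.378 for the genes that rose and -0.47 for those that fell. At least 2-fold, 37 genes rose (0.222%) and 203 fell (1.22%), and of these 203, 95 had a mean level of at most 1 log2 CPM and 90 one between 1 and 3. All 6 knockdown libraries lay above all 3 controls in 1269 genes (7.61%) and below them in 1290 (7.73%). The counts rested on the controls: without control replicate 2 or 3, 1099 and 1183 genes rose, and without control replicate 1 or 3, 1141 and 1020 fell. In each of the 9 fits that leave out 1 library, 810 of the genes that rose and 782 of those that fell were called in the same direction. The median log2 fold change of all genes tested was -0.0168. With upper-quartile scaling in place of TMM, 1353 rose and 2379 fell.

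The direct comparison separated the genes that the mean puts together. Of all genes tested, 4527 (27.1%) differed between the SIN3A and the SIN3B knockdown (edgeR adjusted p under 0.05), and in 6272 (37.6%) the 95% interval of that difference lay within 0.5 log2 of 0 on both sides. Among the 1856 genes that rose, 618 (33.3%) differed between the knockdowns, 265 with the larger value in the SIN3A and 353 in the SIN3B knockdown, and in 1142 (61.5%) the interval was within 0.5 log2. Among the 1787 that fell, 807 (45.2%) differed, 403 with the larger fall in the SIN3A and 404 in the SIN3B knockdown, and the interval was within 0.5 log2 in 595 (33.3%). Some genes with a narrow interval also differed, and 232 of the genes that rose and 460 of those that fell were in neither class. Of the 203 genes that fell at least 2-fold, 63 (31%) differed, 5 had an interval within 0.5 log2 and 135 were in neither class. For the 37 that rose at least 2-fold these counts were 5, 2 and 30. Most of the large changes were thus not shown to be alike in both knockdowns. Both an interval within 0.5 log2 and 6 knockdown libraries beyond the 3 controls held for 841 genes that rose and 471 that fell. Fitted instead as 1 group of 6 libraries, where the difference between the knockdowns counts as spread, 564 genes rose and 428 fell.

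**Figure D1:**
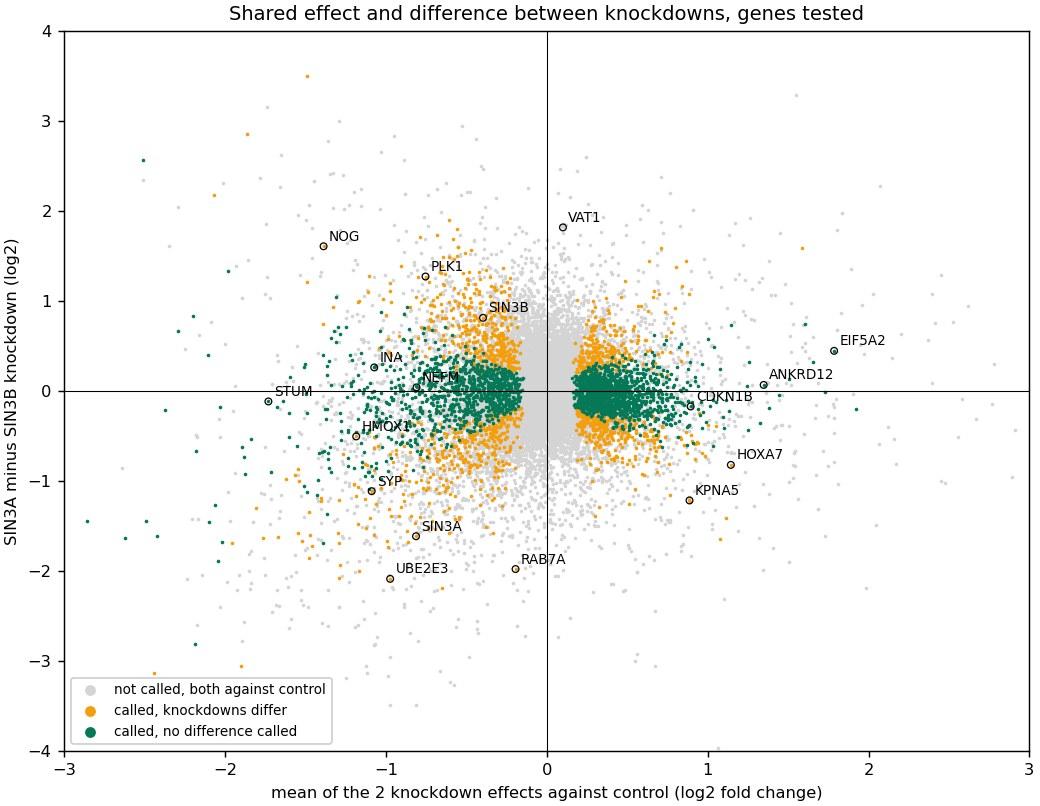
Each point is a gene tested, with the mean of both knockdown effects against control on the x axis and the SIN3A minus the SIN3B knockdown on the y axis (both log2; 27 of the 16686 genes lie outside the axes). ANKRD12, CDKN1B, NEFM and STUM lie near 0 on the y axis and EIF5A2 at 0.45, whereas SIN3A, UBE2E3, RAB7A and PLK1 lie far from it.

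The gene with the largest shared rise by the naming rule was EIF5A2, which encodes a paralog of the translation factor eIF5A that carries the modified amino acid hypusine. The rule ranked called genes above 1 log2 CPM, with all 6 knockdown libraries on one side of the controls, by the smaller of the 2 knockdown effects, so a like size in both is part of how these genes were chosen. EIF5A2 (ENSG00000163577) was at 5.09, 2.82 and 3.86 CPM in controls, 16.6, 13.2 and 17.7 with SIN3A siRNA and 9.95, 12.8 and 12 with SIN3B siRNA. No knockdown library came within the range of the controls. The mean log2 fold change was 1.79 ± 0.18 (edgeR adjusted p = 1.7e-06), made of 2.01 in the SIN3A and 1.56 in the SIN3B knockdown. Their difference of 0.45 had a 95% interval of 0.07 to 0.83 (edgeR adjusted p = 0.077). EIF5A, the abundant paralog, was at 873 to 935 CPM in controls, 688 to 782 with SIN3A siRNA and 880 to 888 with SIN3B siRNA (-0.16 ± 0.06). Of the 16 genes of the hypusine, polyamine and elongation list, 3 rose and 2 fell. AZIN1, an inhibitor of the antizyme that degrades the polyamine enzyme ODC, was called higher at 0.33 ± 0.06. Its rise was larger with SIN3A siRNA (0.51 against 0.16, edgeR adjusted p of the difference = 0.0011). AMD1, which makes a precursor of spermidine, rose by 0.38 ± 0.08. The AMD1 call did not hold (0.14, edgeR adjusted p = 0.061) in a fit with offsets, which take out of each library its trend with the GC content and length of transcripts.

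Of the other 11 largest rises, those whose proteins act at the Golgi, endosomes or vesicles are given first, an order set after the names were seen. GCC2, a golgin of the trans-Golgi, was at 19.1, 21.8 and 19.7 CPM in controls, 43.8, 32.2 and 47.0 with SIN3A siRNA and 34.0, 57.4 and 52.3 with SIN3B siRNA (1.14 ± 0.15). GOLGA4, another golgin of the trans-Golgi (0.94 ± 0.13), EEA1, a tether of early endosomes (1.10 ± 0.15), and PIK3C2A, a lipid kinase of clathrin-coated vesicles (1.05 ± 0.20), rose in all 6 libraries. CCDC186, which takes part in the making of dense-core vesicles, rose by 1.03 ± 0.14. In GCC2, GOLGA4, EEA1, PIK3C2A and CCDC186 both knockdowns varied more than the controls. EEA1 ranged from 10.5 to 13.3 CPM in controls, 19.2 to 27.9 with SIN3A siRNA and 21.3 to 32.4 with SIN3B siRNA, and PIK3C2A from 32.5 to 35.6, 45.9 to 91.8 and 58.9 to 91.5.

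ANKRD12, an ankyrin repeat nuclear protein that binds coactivators of nuclear receptors, was at 8.42, 8.14 and 7.90 CPM in controls, 25.2, 14.1 and 24.6 with SIN3A siRNA and 17.0, 21.8 and 22.1 with SIN3B siRNA (1.35 ± 0.17). Replicate 2 of the SIN3A knockdown was the lowest of the 6 knockdown libraries and still above all controls. ENPP5 (1.33 ± 0.19), FBXO33, an F-box protein (1.26 ± 0.13), CREBRF, a regulator of the CREB3 factor family (1.02 ± 0.15), and CENPE, the kinesin that moves chromosomes to the spindle equator (0.96 ± 0.14), completed the group with CDC42. CDC42, a small GTPase of cell polarity, was listed at only 0.702 to 1.43 CPM in controls and 2.04 to 2.95 in the knockdowns, with 2055 exonic bases shared with another annotated gene on its strand, and its call was lost without control replicate 3 (0.88, adjusted p = 0.0828). With offsets for GC content and length, 4 of the 12 values fell by more than 1.5 times: CENPE to 0.59, CREBRF to 0.67, CCDC186 to 0.67 and EEA1 to 0.71. These 4 were still called, and EIF5A2 was at 1.38.

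**Figure D2:**
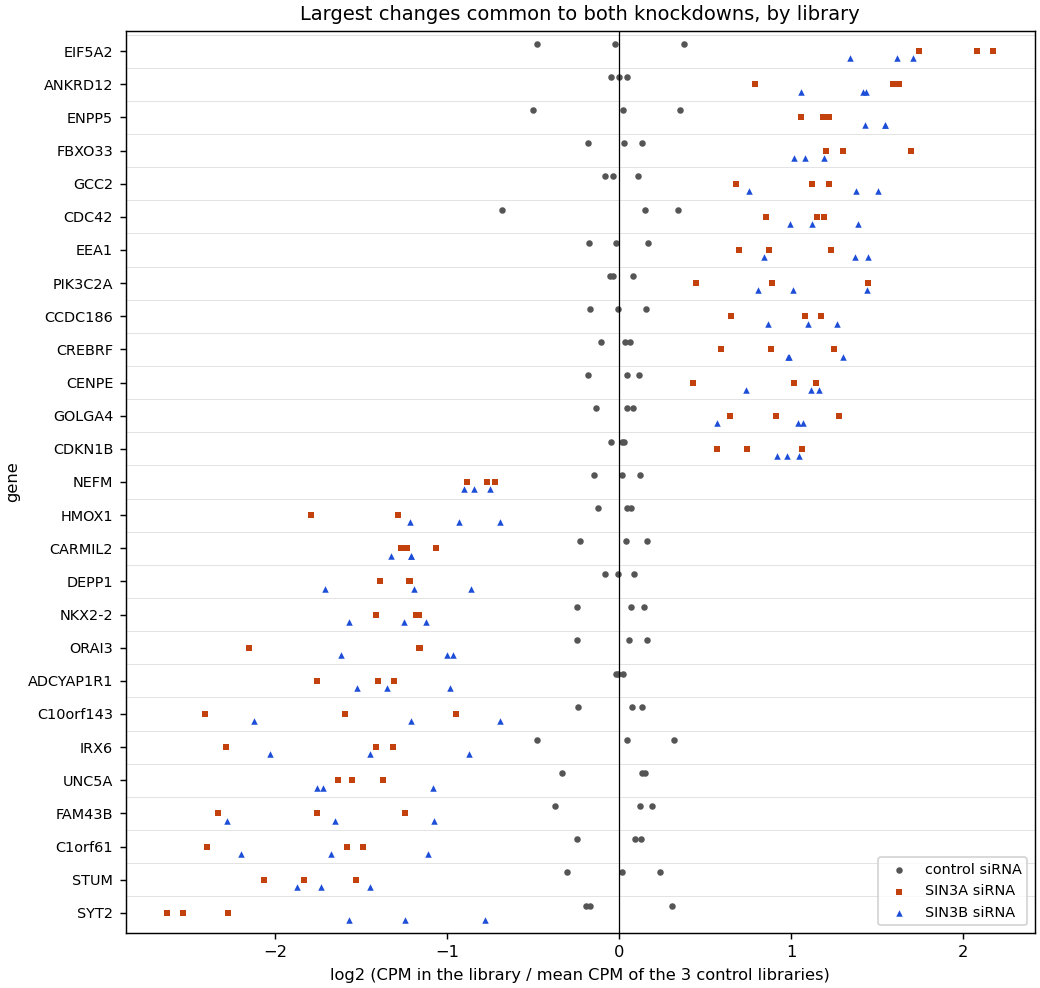
Each point is 1 library, as log2 of its CPM over the mean CPM of the 3 control libraries (x axis), for the 12 largest shared rises, the 12 largest shared falls, CDKN1B, NEFM and HMOX1 (rows). No knockdown library overlaps the controls in any row, which the rule required of the 24 ranked genes.

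The 12 largest shared falls by the same rule were genes of low level, among them genes of synapses, axon guidance and development. SYT2, a calcium sensor of synaptic vesicles, was at 3.97, 5.64 and 4.04 CPM in controls, 0.736, 0.939 and 0.783 with SIN3A siRNA and 1.53, 2.65 and 1.92 with SIN3B siRNA (-1.81 ± 0.26). It fell further in the SIN3A knockdown (difference -1.30, adjusted p = 0.0059), and 2111 of its exonic bases overlap PPP1R12B on the other strand. STUM was at 11.9, 9.55 and 13.9 CPM in controls, 3.31, 2.82 and 4.07 with SIN3A siRNA and 3.21, 3.54 and 4.32 with SIN3B siRNA. Here the 2 knockdowns overlapped each other and lay far from the controls (-1.73 ± 0.17, difference -0.12 with an interval of -0.57 to 0.34).

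ADCYAP1R1, the receptor of the neuropeptide PACAP, fell by 1.37 ± 0.15 on the log2 scale, from 12.2 to 12.6 CPM in controls to 3.68 to 5.01 and 4.32 to 6.28 in the SIN3A and SIN3B knockdowns. UNC5A, a netrin receptor of axon guidance (-1.50 ± 0.24), and the homeobox factors IRX6 (-1.49 ± 0.28) and NKX2-2 (-1.27 ± 0.19) fell in all 6 libraries. CARMIL2, a regulator of actin capping, was the most abundant of the 12, at 15.4, 20.2 and 18.6 CPM in controls, 8.65, 7.51 and 7.68 with SIN3A siRNA and 7.80, 7.81 and 7.20 with SIN3B siRNA (-1.22 ± 0.12). Its difference between the knockdowns was 0.06, with an interval of -0.26 to 0.38. C1orf61 (-1.68 ± 0.24), FAM43B (-1.64 ± 0.31), C10orf143 (-1.37 ± 0.33), ORAI3, a calcium channel of the plasma membrane (-1.29 ± 0.25), and DEPP1, a target of FOXO factors (-1.24 ± 0.18), made up the rest. Of the 12, 8 held in an annotated 3′ UTR 1 or more of the 7-base sequences given below, which went with lower values. STUM, C1orf61, FAM43B, UNC5A, C10orf143, ORAI3 and DEPP1 held a SIN3B sequence, and ADCYAP1R1 a SIN3A sequence. Among genes with an annotated 3′ UTR, 31.6% of those that fell at least 2-fold and 24.4% of all tested held one. Those with a SIN3B sequence fell with the SIN3A siRNA as well, which the rule required. Both the sequences and the 12 genes were picked for lower values in these data, so the count supports nothing.

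CDKN1B, the cyclin-dependent kinase inhibitor p27, rose with both siRNAs. It was at 28.4, 29.9 and 29.7 CPM in controls, 49.1, 43.5 and 61.4 with SIN3A siRNA and 60.5, 57.8 and 55.4 with SIN3B siRNA. The controls lay close together and below every knockdown library. The mean log2 fold change was 0.89 ± 0.10 (edgeR adjusted p = 3.4e-06) and the difference between the knockdowns -0.17, with an interval of -0.39 to 0.05. Among the pocket proteins and CDK inhibitors, 11 genes in all, 5 rose and 0 fell, and without control replicate 1 or 3 only 3 rose. CDKN2C, the inhibitor p18 (0.39 ± 0.08), and CDKN2D, the inhibitor p19 (0.82 ± 0.19), rose, as did RBL1, the pocket protein p107 (0.32 and 0.25 in the SIN3A and SIN3B knockdowns). CDKN1C, the inhibitor p57, was also called, but through the SIN3A knockdown (1.59 against 0.14 in the SIN3B knockdown). CDKN1A, the inhibitor p21, rose in the SIN3A knockdown (0.87) and fell in the SIN3B knockdown (-0.66), which cancelled to 0.10 in the mean.

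Of 29 genes of the p53 response tested, 14 rose and 2 fell, with a median log2 fold change of 0.318 against -0.0168 for all genes. The median was 0.430 in the SIN3A and 0.149 in the SIN3B knockdown, and 8 of the called members differed between the knockdowns. Without control replicate 2, 9 rose, and with the 6 knockdown libraries as 1 group, 5 rose. ZMAT3, an RNA-binding target of p53, was at 16.4, 16.3 and 14.1 CPM in controls, 28.0, 26.9 and 38.5 with SIN3A siRNA and 24.5, 29.8 and 29.8 with SIN3B siRNA (0.92 ± 0.12), with no overlap. CCNG1, cyclin G1 (0.60 ± 0.08), and PHLDA3, an inhibitor of AKT (0.69 ± 0.11), also rose in all 6 libraries, the first more in the SIN3B and the second more in the SIN3A knockdown. With the offsets for GC content and length CCNG1 was at 0.37. The ribonucleotide reductase subunit RRM2B (0.77 and 0.58 in the SIN3A and SIN3B knockdowns) and the death receptor FAS (0.87 and 0.44) did not differ beyond the adjusted test between the knockdowns. BAX, a pore former of apoptosis, was called on the strength of the SIN3A knockdown (0.64 against -0.08). The large T antigen of these cells is known to bind p53.

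Of 40 genes of the G2 and M phases 20 rose and 2 fell, with a median of 0.196, and 17 of these 22 differed between the knockdowns. Without SIN3A knockdown replicate 1 or with upper-quartile scaling, 4 fell. The median was 0.007 in the SIN3A and 0.434 in the SIN3B knockdown. KIF23, a kinesin of the midbody, rose in both, from 103, 122 and 105 CPM in controls to 157, 142 and 161 with SIN3A siRNA and 168.5, 177 and 178 with SIN3B siRNA (0.57 ± 0.07). Only 5 called members did not differ between the knockdowns: KIF23, CENPE, KIF20B (0.95 ± 0.12), the kinase NEK2 (0.36 and 0.50 in the SIN3A and SIN3B knockdowns) and topoisomerase TOP2A (0.20 and 0.41). TTK, a spindle checkpoint kinase, rose by 0.81 in the SIN3A and 1.19 in the SIN3B knockdown. PLK1, a kinase of mitotic entry, was called lower through the SIN3B knockdown alone (-0.12 and -1.39). Its 3′ UTR held a SIN3B 7-base sequence (given below), whose part in the fall was not tested. The list has a median GC content of 42.6%, and KIF23 was at 0.49 and TTK at 0.70 with the offsets for GC content and length.

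Of 40 G1/S genes driven by E2F, 2 rose and 6 fell, with a median of -0.001. Without control replicate 3, 3 fell, and with the offsets 9 rose. RRM2, the other ribonucleotide reductase subunit, was at -0.00 in the SIN3A and -1.15 in the SIN3B knockdown, and E2F1 at 0.12 and -0.97, so both were called in the mean through 1 knockdown. The 3′ UTR of E2F1 held a SIN3B 7-base sequence, and that of RRM2 held none. GINS1, a replication fork protein, was called lower in the mean, with the larger fall in the SIN3A knockdown (-0.60 and -0.24). CCNE1, cyclin E1, was not called in the mean, at 0.10 ± 0.07 (edgeR adjusted p = 0.403). It was at 49.9, 46.0 and 52.9 CPM in controls, 105, 98.3 and 97.0 with SIN3A siRNA and 26.5, 28.9 and 28.8 with SIN3B siRNA.

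CCNE1 is 1 of 655 genes, of 16686 tested, with opposite effects. These had a mean level above 1 log2 CPM, were not called in the mean and differed between the knockdowns. The 2 knockdowns lay on opposite sides of the controls, with no overlap. Antisense genes, pseudogenes and genes with names of clone or LINC form were left out of the 655. The 8 with the widest gap also held VAT1, a vesicle membrane protein, from 179, 190 and 200 CPM in controls to 408, 395 and 343 with SIN3A siRNA and 112, 103 and 110 with SIN3B siRNA. SMIM10L2B went from 8.14 to 9.38 CPM in controls to 19.1 to 24.4 and 3.68 to 4.29, the widest gap of the 8 at 2.47 log2. CIB1, a calcium-binding protein, and KREMEN2 rose in the SIN3A and fell in the SIN3B knockdown, and HLF, a circadian output factor, went the other way (-0.93 and 0.83). TCP11L2 and TMEM52 had gaps of 1.78 and 1.85. Exons of TCP11L2 (3.7 CPM in controls) share 220 bases with CKAP4 (164 CPM) on the other strand. With the offsets for GC content and length CCNE1 (0.19, adjusted p = 0.0496) and VAT1 (0.21, adjusted p = 0.00544) were called higher in the mean.

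Of 31 neuronal genes tested, 13 fell and 0 rose, with a median log2 fold change of -0.73 in the mean, -0.97 in the SIN3A and -0.40 in the SIN3B knockdown. With the 6 knockdown libraries as 1 group, 4 fell. NEFM, the medium neurofilament subunit, was at 317, 284 and 341 CPM in controls, 184, 190 and 170 with SIN3A siRNA and 175, 168 and 186 with SIN3B siRNA. The groups did not overlap, at -0.81 ± 0.06 with a difference between the knockdowns of 0.04 and an interval of -0.12 to 0.20. INA, a further neuronal intermediate filament, went from 71.2 to 73.6 CPM in controls to 33.3 to 41.0 and 28.0 to 33.9 (-1.07 ± 0.08). GAP43, a growth cone protein, was at -0.99 ± 0.27, and neither INA nor GAP43 was shown to differ between the knockdowns. The other 10 called members differed: SYP, a synaptic vesicle membrane protein, was at -1.65 in the SIN3A and -0.53 in the SIN3B knockdown, CPLX1, a regulator of vesicle fusion, at -2.01 and -0.79, and NEFL, the light neurofilament subunit, at -0.06 and -0.79.

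REST, which represses genes of neurons through SIN3 and other corepressors, rose from 26.2, 24.1 and 25.1 CPM in controls to 39.0, 37.2 and 44.5 with SIN3A siRNA and 36.4, 32.3 and 33.6 with SIN3B siRNA (0.56 ± 0.09). The 2 knockdowns did not overlap each other, but their difference of 0.24 did not pass the test (edgeR adjusted p = 0.087). Of 24 genes of histone deacetylase complexes other than SIN3, 3 rose (6 with the offsets) and 4 fell. CDK2AP1, a subunit of the NuRD complex (0.45 and 0.68), and HMG20B, a subunit of the REST corepressor complex (0.35 ± 0.06), rose. The rise of HMG20B was larger with SIN3A than with SIN3B siRNA (0.50 against 0.21). GATAD2A, a NuRD subunit, was called lower through the SIN3A knockdown (-0.77 against 0.02).

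Among 27 subunits and partners of the SIN3 complex, 6 rose and 3 fell, and SIN3A and SIN3B are 2 of these 3. HDAC1, a catalytic subunit, was at 257, 277 and 278 CPM in controls, 387, 378 and 368 with SIN3A siRNA and 347, 358 and 349 with SIN3B siRNA, a rise of 0.43 ± 0.05 whose difference between the knockdowns of 0.10 had an interval of -0.03 to 0.23. ARID4B, a DNA- and chromatin-binding subunit, rose by 0.59 and 0.70 in the SIN3A and SIN3B knockdowns, and its paralog ARID4A by 0.87 and 0.41. HDAC2 was at 0.17 ± 0.06 and not called (adjusted p = 0.056). RBBP4, a histone chaperone, fell mainly in the SIN3A knockdown (-0.61 and -0.10). The list's median was 0.033, and -0.0208 with upper-quartile scaling.

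Of 29 immediate early genes, the first to respond to growth factors, 10 fell and 0 rose, with a median of -0.364 (-0.195 without control replicate 3). JUN, an AP-1 subunit, was at 480, 455 and 543 CPM in controls, 359, 352 and 328 with SIN3A siRNA and 391, 350 and 383 with SIN3B siRNA (-0.45 ± 0.06). Its AP-1 partners FOS (-0.69 ± 0.16) and FOSB (-0.59 ± 0.13), the nuclear receptor NR4A1 (-0.60 ± 0.11) and the phosphatase DUSP1 (-0.40 ± 0.09) also fell, with no difference between the knockdowns that passed the adjusted test. FOS was uneven in controls, at 12.8 to 21.1 CPM, with the knockdown libraries at 6.78 to 11.8. ID2, an inhibitor of helix-loop-helix factors, fell in both and further in the SIN3B knockdown (-0.56 and -0.95), as did MYC (-0.22 and -0.64). ID3 (-0.21 and -1.10) fell mostly in the SIN3B knockdown, where its 3 libraries were at 18.9 to 21.2 CPM against 41.6 to 43.7 in controls.

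Of 19 hypoxia targets, 10 fell and 1 rose, with a median of -0.278, and 6 fell without control replicate 3. DDIT4, an inhibitor of mTORC1, was at 284, 252 and 342 CPM in controls, 192, 181 and 153 with SIN3A siRNA and 175, 149 and 165 with SIN3B siRNA (-0.79 ± 0.08). The lysyl oxidase LOX (-0.67 ± 0.12) and NDRG1 (-0.50 ± 0.10) fell, and their differences between the knockdowns did not pass the test, with intervals of -0.13 to 0.48 and -0.18 to 0.29. CA12, a carbonic anhydrase, fell further with SIN3B siRNA (-0.87 and -1.80), and SLC2A1, a glucose transporter, was at 0.19 and -1.31. In the synthesis of fatty acids 7 of 15 genes fell and 0 rose, with a median of -0.256 (-0.169 with the offsets). SCD, the stearoyl-CoA desaturase (-0.23 and -0.29), and SREBF1, the master regulator of the pathway (-0.28 and -0.29), were not shown to differ between the knockdowns, whereas FADS2, a desaturase of polyunsaturated fatty acids (-0.56 and -0.35), FADS1 (-0.17 and -0.64) and fatty acid synthase FASN (-0.15 and -0.51) did. Of 19 glycolysis genes 4 fell and 0 rose, ENO2, an enolase, by 0.55 ± 0.08 on the log2 scale among them. Without SIN3A knockdown replicate 1, 8 fell, and without control replicate 3, 2 fell.

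HMOX1, heme oxygenase 1, which breaks down heme, fell in both knockdowns. It was at 42.8, 49.0 and 48.1 CPM in controls, 19.1, 19.1 and 13.5 with SIN3A siRNA and 24.5, 20.1 and 28.8 with SIN3B siRNA. The 2 knockdowns did not overlap each other or the controls. The mean log2 fold change was -1.19 ± 0.12 (edgeR adjusted p = 1.2e-06), and the fall was larger in the SIN3A knockdown (-1.44 against -0.93, adjusted p of the difference = 0.0117). Of 26 genes of the NRF2 and heme list, 5 rose and 2 fell, so the list did not move one way. NFE2L2, the factor NRF2 (0.29 and 0.35), and BACH1, the repressor of HMOX1 (0.38 and 0.58), rose. PRDX1, a peroxidase, rose from 270, 299 and 272 CPM to 557, 445 and 406 with SIN3A siRNA and 383, 379 and 385 with SIN3B siRNA (0.60 ± 0.08). NQO1, a common NRF2 target, was at -0.29 ± 0.17 and not called (adjusted p = 0.27). Without control replicate 2 or 3, 2 members of the list rose, without SIN3B knockdown replicate 2 or 3, 3 rose, with upper-quartile scaling 3 rose and 4 fell, and with the offsets 8 rose and 5 fell.

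Of 37 HOX genes, homeobox factors of body patterning, 11 fell and 2 rose, and 7 fell without control replicate 1 or 2 and with the offsets. HOXA7 rose from 16.5, 14.2 and 14.9 CPM in controls to 25.6, 25.4 and 25.1 with SIN3A siRNA and 45.6, 48.2 and 40.5 with SIN3B siRNA (1.14 ± 0.10), and the rise was larger with SIN3B siRNA (difference -0.82, adjusted p = 8.2e-06). Its exons share 1507 bases with HOXA-AS3 on the other strand. HOXD13 (-0.44 ± 0.07) and HOXD9 (-0.43 ± 0.08) fell in all 6 libraries and were not shown to differ between the knockdowns. Of 26 Wnt pathway genes 4 rose and 7 fell. Without control replicate 1, 2 rose and 4 fell, without control replicate 2, 1 rose, without control replicate 3, 3 fell, and with the offsets 4 fell. APC, which marks β-catenin for destruction (0.51 and 0.50 in the SIN3A and SIN3B knockdowns), LGR4, an R-spondin receptor (0.45 and 0.48), and the transcription factor LEF1 (0.34 and 0.43) rose. The receptor FZD7 (-1.01 and -0.30), the stem cell receptor LGR5 (-1.40 and -0.42) and the antagonist APCDD1 (-0.68 and -1.67) fell unevenly. Of 21 BMP pathway genes 2 rose and 4 fell: NOG, the BMP antagonist noggin, fell more in the SIN3B knockdown (-0.58 and -2.19), and SMAD7, an inhibitor of the pathway, rose evenly (0.42 and 0.47).

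Of 28 small GTPases of vesicle traffic 9 rose and 2 fell (4 with the offsets). Their median GC content was 41.4%, near the border of the 2 lowest bins, in which 29.4% and 12.1% of genes rose. SAR1B, which starts COPII vesicles, was at 49.3, 43.5 and 41.8 CPM in controls, 60.9, 55.9 and 63.9 with SIN3A siRNA and 63.05, 64.9 and 63.9 with SIN3B siRNA (0.47 ± 0.08, and 0.27 with the offsets for GC content and length). Its exons share 385 bases with SEC24A (34.4 CPM in controls, 0.48) on the other strand. RAB5B of early endosomes (0.44 ± 0.06) and RAB1A of the path from endoplasmic reticulum to Golgi (0.40 ± 0.06; 0.17 with the offsets) rose. Both rose more with SIN3A than with SIN3B siRNA (0.55 against 0.33, and 0.54 against 0.25). RAB7A of late endosomes was called at -0.19 from opposite effects of -1.19 and 0.80. Of 35 genes of autophagy and lysosomes 9 rose and 4 fell. MAP1LC3B of autophagosomes rose by 0.38 ± 0.07, while GAA, which breaks down glycogen, fell by 0.38 ± 0.07 on the log2 scale. The count that rose was 6 without control replicate 1, 5 without control replicate 2 or 3, 5 without SIN3B knockdown replicate 1 or 2, 5 with upper-quartile scaling and 16 with the offsets, and 2 fell without control replicate 1 or 2 or with the offsets.

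Of 30 E2 and E3 ubiquitin enzymes 11 rose and 3 fell, with 6 that rose without control replicate 2, 7 without SIN3B knockdown replicate 2, and 7 with upper-quartile scaling or with the offsets. This list too had a median GC content (41.8%) near the border of the 2 lowest bins, in which 29.4% and 12.1% of genes rose. UBE2D1 (0.89 ± 0.14; 0.47 with the offsets), UBE2A (0.38 ± 0.06) and the SCF ligase subunit SKP1 (0.49 and 0.32) rose, and UBE2E3 was called lower through the SIN3A knockdown alone, at 42.4 to 46.3 CPM in controls, 10.2 to 11.4 with SIN3A siRNA and 43.8 to 49.1 with SIN3B siRNA. Of 24 nuclear transport receptors 6 rose and 4 fell, but 3 rose without control replicate 2 or with the offsets, and 2 fell without control replicate 3. IPO7 rose by 0.51 ± 0.07 (0.24 with the offsets), KPNA5 mainly with SIN3B siRNA (0.28 and 1.50, a mean of 0.89 that was 0.47 with the offsets), and IPO8 was at -1.05 and 0.22. Of 13 microRNA silencing genes 4 rose and 1 fell (3 with upper-quartile scaling). Those that rose include DICER1, which cuts precursor hairpins (0.46 ± 0.09; 0.26 with the offsets), and the scaffold TNRC6A (0.34 ± 0.06). Both rose more with SIN3B than with SIN3A siRNA (0.63 against 0.30, and 0.44 against 0.24). All 5 called members of this list differed between the knockdowns.

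Of 60 cytosolic ribosomal protein genes 1 rose and 1 fell, of 13 mitochondrially encoded genes 1 rose and 0 fell, and of 42 nuclear oxidative phosphorylation genes 3 rose and 2 fell. Without SIN3A knockdown replicate 1, 10 ribosomal protein genes fell, 3 mitochondrially encoded genes rose, and in oxidative phosphorylation 7 rose and 4 fell. Without SIN3A knockdown replicate 3, 4 ribosomal protein genes rose. In oxidative phosphorylation 0 rose without control replicate 1, and 1 rose without control replicate 2 or 3, without any 1 of the SIN3B knockdown libraries, or with upper-quartile scaling. With the offsets 6 ribosomal protein genes and 10 of oxidative phosphorylation rose. Of 21 interferon-stimulated and RNA-sensing genes, which can respond to transfected RNA, 0 rose and 1 fell (HERC6). Of 35 ribosome biogenesis genes 7 rose and 2 fell. There 3 rose without control replicate 1 and 4 without control replicate 3, and 5 fell without SIN3A knockdown replicate 1 or with upper-quartile scaling. Of 30 chaperone and stress response genes of the endoplasmic reticulum 3 rose and 3 fell, with 1 that fell without control replicate 1 or 3 or SIN3B knockdown replicate 2 or 3, 5 without SIN3A knockdown replicate 1 and 6 with upper-quartile scaling. Of 24 cholesterol genes 3 rose and 3 fell. There 0 fell without control replicate 1, 1 fell without SIN3B knockdown replicate 2 or 3, 1 rose without control replicate 2, 5 rose without SIN3A knockdown replicate 1 and 6 with the offsets. DNAJB9, a cochaperone, rose (0.62 ± 0.13) and XBP1, the factor that drives such genes, fell (-0.34 ± 0.06) in all 6 libraries. Exons of DNAJB9 (12.9 CPM in controls) overlap THAP5 (16.1 CPM, 0.75) and PNPLA8 (19.9 CPM, 0.64) on the other strand.

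Of 12 epithelial markers 7 were tested, and CDH1, MUC1 and EPCAM were called lower through the SIN3A knockdown. CDH1, E-cadherin, was at 10.4 to 11.9 CPM in controls, 3.13 to 5.17 with SIN3A siRNA and 9.73 to 11.1 with SIN3B siRNA. Summed over the 7 genes the level was 70.8 to 74.5 CPM in controls, 70.8 to 74.3 with SIN3A siRNA and 48.6 to 57.8 with SIN3B siRNA, and KRT19 and CLDN3 had no count in any library. Their part in the other results was not tested. The MUC1 call was lost without control replicate 1 or 3, and that of EPCAM in 6 of the 9 fits that leave out 1 library.

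**Figure D3:**
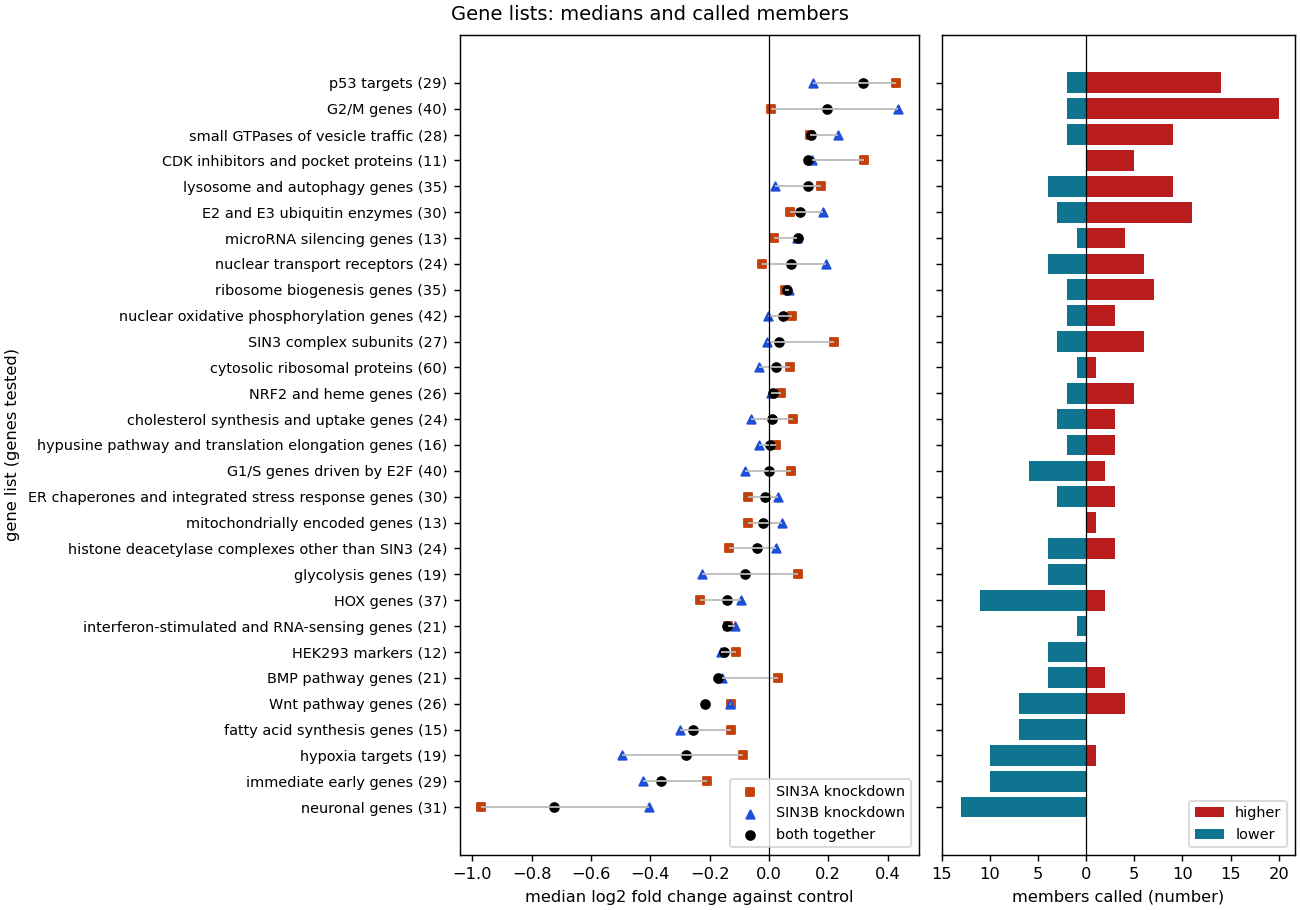
Left, the median log2 fold change of each list with 10 or more genes tested (number in brackets) in the SIN3A knockdown, the SIN3B knockdown and both together; right, the number of members called higher or lower in both together. The neuronal list has the lowest median of both together (-0.73) and the p53 targets the highest (0.318).

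Changes went with the base composition of the transcripts. Genes that rose had a median GC content of 41.2% and a median exon length of 6025 bases, genes that fell 55.1% and 4962, and all genes tested 49.3% and 4456. With the genes in 5 bins of equal size by GC content, 29.4% rose and 2.28% fell in the lowest bin (26.7% to 41.6%), and in the highest (58.7% to 76.8%) 3.51% rose and 17.2% fell. Within the lowest bin the median of log2(CPM + 1) against the control mean was 0.180 to 0.278 in the SIN3B knockdown libraries, 0.124, 0.032 and 0.207 in SIN3A knockdown replicates 1, 2 and 3, and -0.025 to 0.048 in controls. The shift was thus seen in 5 of 6 knockdown libraries, and replicate 2 of the SIN3A knockdown lay within the controls. In the fit with the offsets, 1924 genes rose and 1728 fell, and 1171 of the 1856 and 1360 of the 1787 genes were called again in the same direction. The part of base composition in the results was not tested beyond this.

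**Figure D4:**
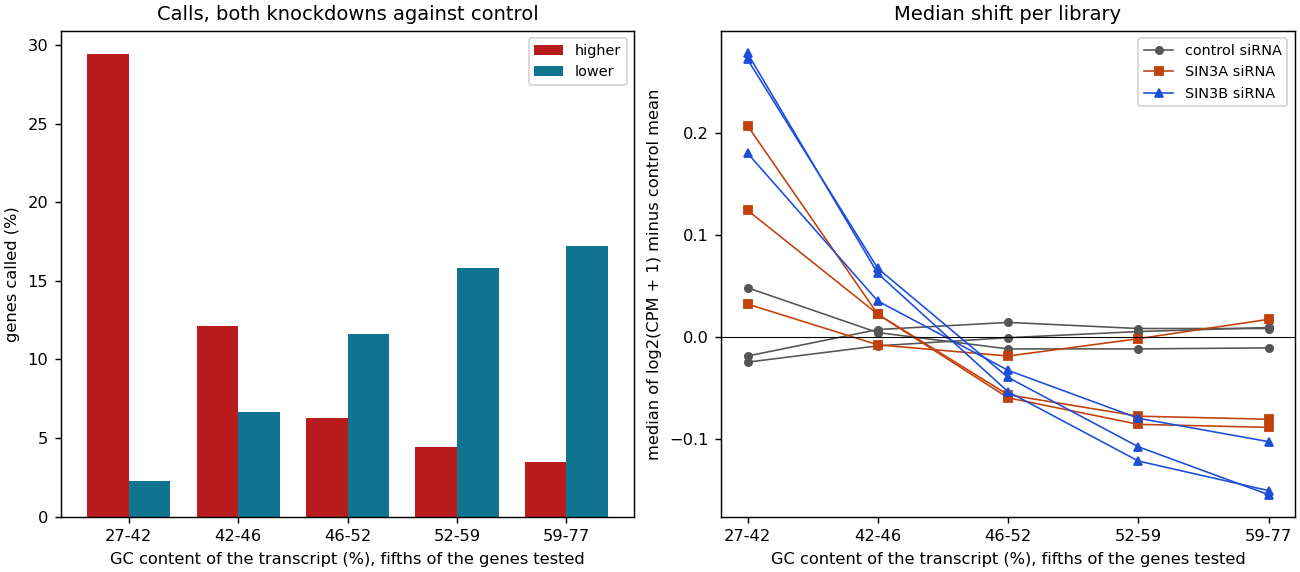
Left, the percentage of genes called higher or lower in both knockdowns against control, by 5 bins of transcript GC content with equal numbers of genes (x axis); right, for each library the median over genes of log2(CPM + 1) minus the control mean. From the lowest to the highest bin the share that rose goes from 29.4% to 3.51% and the share that fell from 2.28% to 17.2%.

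A 7-base match in the 3′ UTR, such as a siRNA seed could pair with, was looked for in each knockdown by its link with lower values, with GC content and length taken into account, so the sequences were picked from these data.
SIN3A knockdown, rank 1: GGTCTAA
SIN3A knockdown, rank 2: AGGTCTA
SIN3B knockdown, rank 1: ACAGCCT
SIN3B knockdown, rank 2: CAGCCTA
Of the genes that fell in both together 35.6% held 1 or more of the 4, against 19.2% of those that rose and 24.4% of all genes tested with an annotated 3′ UTR. Among the genes that fell and differed between the knockdowns the share was 42.4%, and among those not shown to differ 29.6%. Since the sequences were chosen for this link, these shares describe the genes and support nothing. Without any gene that held one, 1392 genes rose and 1217 fell of 13417 tested. In that fit 12 of 24 p53 targets rose and 1 fell, 11 of 24 neuronal genes fell and 0 rose, and 8 of 22 immediate early genes fell and 0 rose. These lists were picked from all that were fitted in this way. HMOX1 and ADCYAP1R1 held a SIN3A sequence, and EIF5A2, CDKN1B and NEFM held none of the 4. Of genes that fell only or further in the SIN3B knockdown, PLK1, E2F1, CA12 and APCDD1 held a SIN3B sequence. FZD7 and IPO8, which fell only or further in the SIN3A knockdown, held a SIN3A sequence. RRM2, SLC2A1, NOG, ID3, NEFL, SYP, UBE2E3, CDH1 and GATAD2A, also uneven between the knockdowns, held none of the 4. The part of these sequences in the falls was not tested.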

How the data were processed

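Poly-A RNA from 9 HEK293T libraries was measured. Per the submitters' processing notes, Trimmomatic 0.36, HISAT2 2.1.0, HTSeq, DESeq2 1.20.0 and the GRCh38 build were used. The authors deposited gene counts, which are the base of every test, and FPKM values, which were used for alternatives only. Whether counting used the strand is not given in the sources used here. Exons of 31 of the 108 genes named by the rule overlap those of another tested gene, 28 on the opposite strand. Reads from bases shared on the same strand cannot be told apart, and those shared across strands cannot if counting ignored the strand.

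Of 58734 genes, 31909 had no count, and filterByExpr (minimum count 10) kept 16686. edgeR 4.0.16 (R 4.3.3) fitted 3 groups with TMM scaling and the robust quasi-likelihood test with 6 residual degrees of freedom, and p-values were Benjamini-Hochberg adjusted over all genes tested. The main contrast was the mean of both knockdown effects, each with equal weight. limma 3.58.1 and DESeq2 1.42.0 served as alternatives, and the fit was tested on simulated counts. Promoters came from the RefSeq table of GRCh38.p14, and gene models from the annotation given with the reference.

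Members and lists were chosen with earlier results of these data known. Genes named by rule are the targets, EIF5A2, CDKN1B, NEFM and HMOX1, the 12 largest rises and 12 largest falls ranked by the smaller of both effects, the 3 called members of lowest adjusted p in each list with at least 3 called, and the 8 widest opposite differences. Other list members named were picked after their values were seen. A gene that the rule names is not reported here.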

Additional observations from a re-analysis of the deposited data

Results flagged for a closer look

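Of 130 tested genes that the report describes, 57 differed between the SIN3A and the SIN3B knockdown in the direct comparison (edgeR adjusted p of at most 0.0481), and 73 did not pass that test. Over all 16686 genes tested, 4527 (27.1%) differed. The 130 include the targets, genes ranked for a wide difference and members picked after their values were seen, so no excess is read from this count. Each value here is the log2 level with SIN3A siRNA minus that with SIN3B siRNA, from 3 libraries each. The targets themselves gave -1.61 for SIN3A and 0.81 for SIN3B.

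Among cell-cycle, p53 and growth genes the difference was 1.53 for CDKN1A, 1.45 for CDKN1C, 1.83 for CCNE1, 1.27 for PLK1, 1.15 for RRM2, 1.08 for E2F1, 0.71 for BAX and 0.41 for PHLDA3. It was -0.36 for GINS1, -0.38 for TTK, -0.35 for CCNG1 and 0.42 for MYC. Among neuronal and immediate early genes it was -1.30 for SYT2, -1.22 for CPLX1, -1.11 for SYP, 0.73 for NEFL, 0.39 for ID2 and 0.89 for ID3. The SIN3 and other deacetylase complexes gave 0.46 for ARID4A, -0.52 for RBBP4, -0.80 for GATAD2A and 0.29 for HMG20B.

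Metabolic, heme and hypoxia genes gave -0.51 for HMOX1, 0.30 for PRDX1, 1.50 for SLC2A1, 0.93 for CA12, 0.46 for FADS1, -0.21 for FADS2 and 0.36 for FASN. Genes of patterning and signalling gave -0.82 for HOXA7, 1.61 for NOG, 0.99 for APCDD1, -0.97 for LGR5, -0.70 for FZD7 and 1.74 for KREMEN2. Vesicle, lysosome and transport genes gave -1.98 for RAB7A, 0.28 for RAB1A, 0.22 for RAB5B, -1.27 for IPO8, -1.22 for KPNA5 and 1.82 for VAT1.

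Ubiquitin, microRNA and translation genes gave -2.09 for UBE2E3, -0.33 for DICER1, -0.21 for TNRC6A, -0.27 for EIF5A and 0.35 for AZIN1. The epithelial markers gave -1.47 for CDH1, -1.56 for MUC1 and -1.39 for EPCAM, and the HEK293 marker VIM 0.28. The other genes with opposite effects gave 2.47 for SMIM10L2B, 1.85 for TMEM52, 1.78 for TCP11L2, 1.68 for CIB1 and -1.75 for HLF.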

How the results depend on the processing

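Both counts of the main comparison kept within 1.5 times of 1856 higher and 1787 lower under 3 other scalings, 2 other filters on low counts, DESeq2, limma on log2 FPKM with 2 pseudocounts, voom with library weights, counts divided by 4, and offsets for GC content and length. With the 6 knockdown libraries as 1 group 564 rose and 428 fell, since the difference between the knockdowns then counts as spread. Tested against a fold of 1.2, 366 rose, 508 fell and 1902 differed between the knockdowns. Leaving out 1 library at a time gave 1099 to 2271 higher, 1020 to 1928 lower and 3373 to 4807 that differed. The lowest counts came without control replicate 2 (1099 higher) and without control replicate 3 (1020 lower), and control replicate 3 (1183 higher) and control replicate 1 (1141 lower) also moved a count by over 1.5 times. With the replicate number as a block 1696 rose and 1615 fell, and 4239 differed. Deviations of same-numbered libraries correlated at -0.227 to 0.0736, so the numbers were not taken to pair the libraries. None of the calls among the 108 genes named by the rule changed direction under any of these. Of the 8 genes with opposite effects, whose means near 0 were not called, CIB1, HLF, KREMEN2, TCP11L2 and TMEM52 changed sign under at least 1 setting, CIB1 from -0.05 to 0.04 with the offsets. Without the genes that hold a 7-base sequence, 75 of the 108 had a value. The calls of EPCAM, SLC2A3, NDUFA2 and SC5D were lost with either FPKM fit, 35 calls with 1 group, 36 with the fold of 1.2, and those of CYC1, DDX21, SC5D and AMD1 with the offsets. The depth limits genes near the floor, where the large falls lie: a difference under it was not detectable.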
